A study of Arabidopsis thaliana with 12 samples.

Results

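The averaged effect of the camta3-D genotype was measured over 3 immune treatments, using all 12 of the 12 libraries of the series, 6 from wild type and 6 from camta3-D. Each gene was fitted with a term for treatment and a term for genotype. Its genotype effect, called averaged here, is the common difference between the lines with the treatments held apart. It need not equal the plain mean of the 3 treatment effects. Polyadenylated RNA was sequenced from leaves of 4-week-old Arabidopsis plants grown in short days and infiltrated with a syringe. The wild type was Col-0, and camta3-D (the sr1-4D allele) carries in the Col-0 background a dominant form of the transcription factor CAMTA3 in which a valine replaces an alanine. Leaves were taken 1 h after 100 nM flg22, a bacterial flagellin peptide, or 4 h after the bacterium Pseudomonas syringae pv. tomato (Pst) DC3000 carrying AvrRpm1 or AvrRps4, infiltrated at OD600 0.001. Each combination of genotype and treatment had 2 libraries, and each library pooled discs from several plants of 1 line. Treatment and time differ together between flg22 and Pst, and no mock-infiltrated library was analysed here. A genotype effect therefore cannot be told from one that was present before infiltration.

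CAMTA proteins are calmodulin-binding transcription activators, which couple calcium signals to transcription through DNA elements with a CGCG core. Flagellin peptides are sensed at the cell surface by the receptor kinase FLS2, whereas bacterial effectors such as AvrRpm1 and AvrRps4 are sensed inside the cell by NLR receptors. Both routes raise cytosolic calcium, activate MAP kinases and lead to the synthesis of salicylic acid, the hormone that drives much of the defence transcriptome of leaves. CAMTA3 is also known as SR1, the symbol that the annotation gives.

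The 12 libraries held 22.8 to 26.3 M gene counts each, and 20749 to 21147 genes had a count. Reads aligned to several places made up 7.78% of all counted reads, summary lines included, in 1 library, camta3-D AvrRpm1 replicate 2, and at most 3.43% in the others. Without that library 1510 genes were lower and 1206 higher, beside the 1494 and 1338 reported with it. Nuclear photosynthesis genes, which mark leaf tissue, together took 11.6% to 18.8% of a library. Guard cell markers summed to 65.2 to 92.5 CPM (counts per M library counts, scaled by TMM, where M stands for mega) in wild type and 56.7 to 74.2 CPM in camta3-D. These ranges overlapped, and 8 of the 9 estimates lay below 0. Phloem markers (514.2 to 704.4 CPM in wild type, 470.9 to 750.8 in camta3-D), epidermis markers (522 to 1206 and 504 to 1416) and dividing cell markers (9.96 to 18.8 and 12.6 to 19.98) also overlapped between the lines. Of the epidermis markers, 1 gene of 7 (MYB0) was at 0 in all libraries. In whole leaves, fewer cells of a type and less RNA per cell cannot be told apart, and the part of cell composition in the results that follow was not tested. The study describes its RNA-seq data as coming from 2 independent experiments. The labels do not say which library came from which experiment, and the main fit had no term for experiment. With same-numbered libraries of a treatment taken as a block, 818 genes were lower and 608 higher.

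The camta3-D allele changes the protein and leaves the locus countable, so transcript levels of CAMTA3 do not check the genotype labels. CAMTA3 (listed as SR1, AT2G22300) stood at 195 and 191 CPM in wild type and 209.9 and 193 in camta3-D after flg22, at 68.2 and 59.3 against 49.9 and 50.6 after AvrRpm1, and at 87 and 122 against 95 and 124 after AvrRps4. Its averaged genotype effect was -0.07 on the log2 scale (adjusted p = 0.717). All 6 CAMTA genes were tested and none was called, with estimates between -0.07 and 0.17 and a lowest adjusted p of 0.312. At an unadjusted p under 0.05 the count was also 0. With DESeq2 the count of calls was 0 as well.

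Of 19167 genes tested, 2832 (14.8%) differed between the genotypes at an adjusted p under 0.05 in edgeR's quasi-likelihood test. The calls were nearly balanced in number, with 1494 genes (7.79%) lower and 1338 (6.98%) higher in camta3-D. In size they were not balanced. More than 2-fold differences were found for 463 genes lower (2.42% of genes tested) and 113 higher (0.59%), and differences over 8-fold for 55 lower and 3 higher. The median effect was -0.66 on the log2 scale among the lower genes and 0.41 among the higher genes, beside 0.02 over all genes tested.

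**Figure D1:**
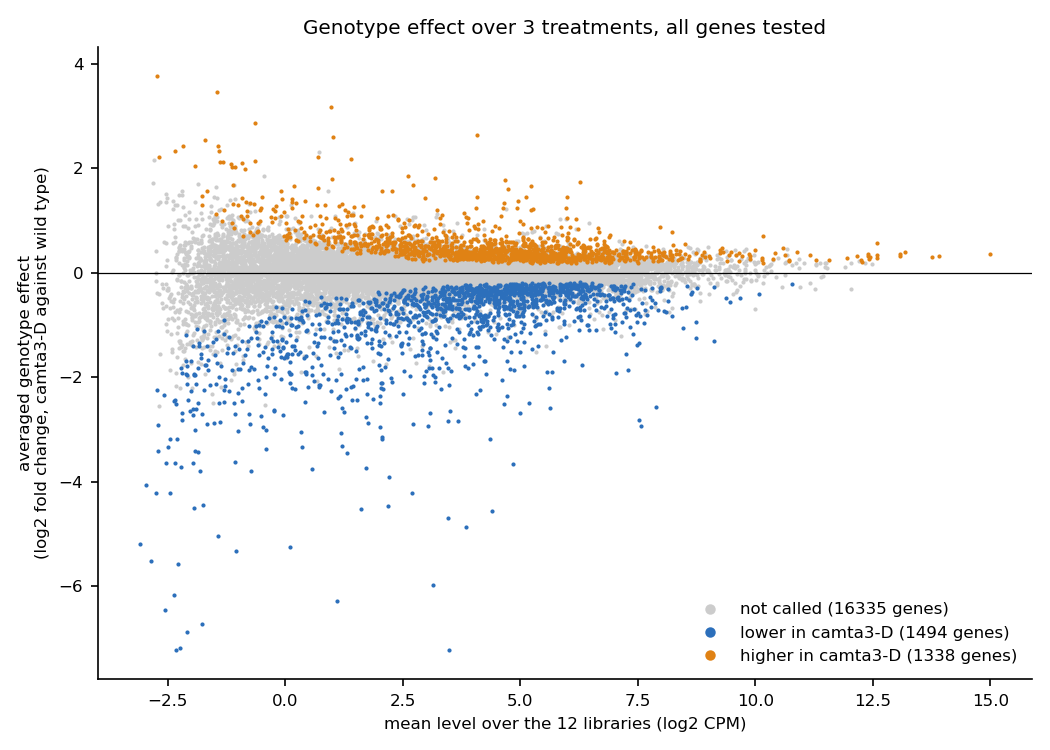
Averaged genotype effect (log2 fold change, camta3-D against wild type) against the mean level over the 12 libraries (log2 CPM), with 1 point per gene tested. The 1494 lower genes reach far below the 1338 higher genes reach above the zero line, and 26 lower genes but 0 higher genes passed 16-fold.

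The signs of the 3 treatment effects were compared among the called genes. Among the 1494 lower genes, 1437 had estimates below 0 after flg22, AvrRpm1 and AvrRps4 alike, with medians of -0.64, -0.65 and -0.55. Among the 1338 higher genes, 1324 had 3 estimates above 0, with medians of 0.45, 0.36 and 0.41. These signs come from the same libraries that made the calls and describe them only. In 899 of the lower genes the 2 camta3-D libraries lay below the 2 wild-type libraries in each of the 3 treatments, and in 935 of the higher genes they lay above. Over all genes tested, such separation was seen downwards in 5.54% and upwards in 6.26%. A test of whether the genotype effect differed among the treatments called 47 genes (0.245%), of which 8 were among the lower and 2 among the higher genes. That count was 0 without either camta3-D flg22 library and 1319 in DESeq2. The calls did not all rest on every library, since 788 lower and 588 higher genes were called with any 1 of the 12 libraries left out, and 318 lower and 183 higher genes with any 1 of the 3 treatments left out. The higher count fell to 750 without camta3-D AvrRps4 replicate 1, and the counts were 604 lower and 388 higher without the flg22 libraries.

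The largest decreases were ranked among called genes with a mean log2 CPM of at least 2 and no overlap in any treatment. This filter favours genes that were abundant in some wild-type libraries. Genes with fewer counts, such as ALD1 and WRKY38 below, had larger estimated decreases than most genes ranked here. AT2G05540, which the annotation describes as a glycine-rich protein gene, stood at 39.9 and 38.6 CPM in wild type after flg22, at 186 and 175 after AvrRpm1 and at 276 and 279.9 after AvrRps4. In the 6 camta3-D libraries it lay between 0.496 and 1.25 CPM. No camta3-D library came near any wild-type library, and the difference was 150.2-fold (log2 fold change -7.23 ± 0.39 SE, adjusted p = 1.06e-05).

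LURP1, a gene of the salicylic acid response needed for basal defence against an oomycete, stood at 6.31 and 11.9 CPM in wild type after flg22, 539.9 and 376 after AvrRpm1 and 43.3 and 74.1 after AvrRps4. The 6 camta3-D libraries held 0.887 to 1.97 CPM (median 1.14). The wild-type level differed widely among the treatments, and the camta3-D level lay below it in each (log2 fold change -5.98 ± 0.85 SE, adjusted p = 0.00179). PCC1, a small pathogen- and clock-controlled gene (promoter window chr3:7846784-7847083, minus strand, TAIR10.1), stood at 21.6 to 283 CPM (median 72.5) in wild type and 1.01 to 4.94 CPM (median 3.29) in camta3-D (log2 fold change -4.86 ± 0.49 SE, adjusted p = 0.000302). AT3G22235, annotated as a cysteine-rich transmembrane module stress tolerance protein (promoter window chr3:7855765-7856064, same strand), held 21.2 to 374 CPM (median 106) and 3.03 to 6.72 CPM (median 4.38) (log2 fold change -4.57 ± 0.45 SE, adjusted p = 0.000272). Both genes were highest in wild type after AvrRpm1 and lowest after flg22, and their genotypes did not overlap in any treatment.

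**Figure D2:**
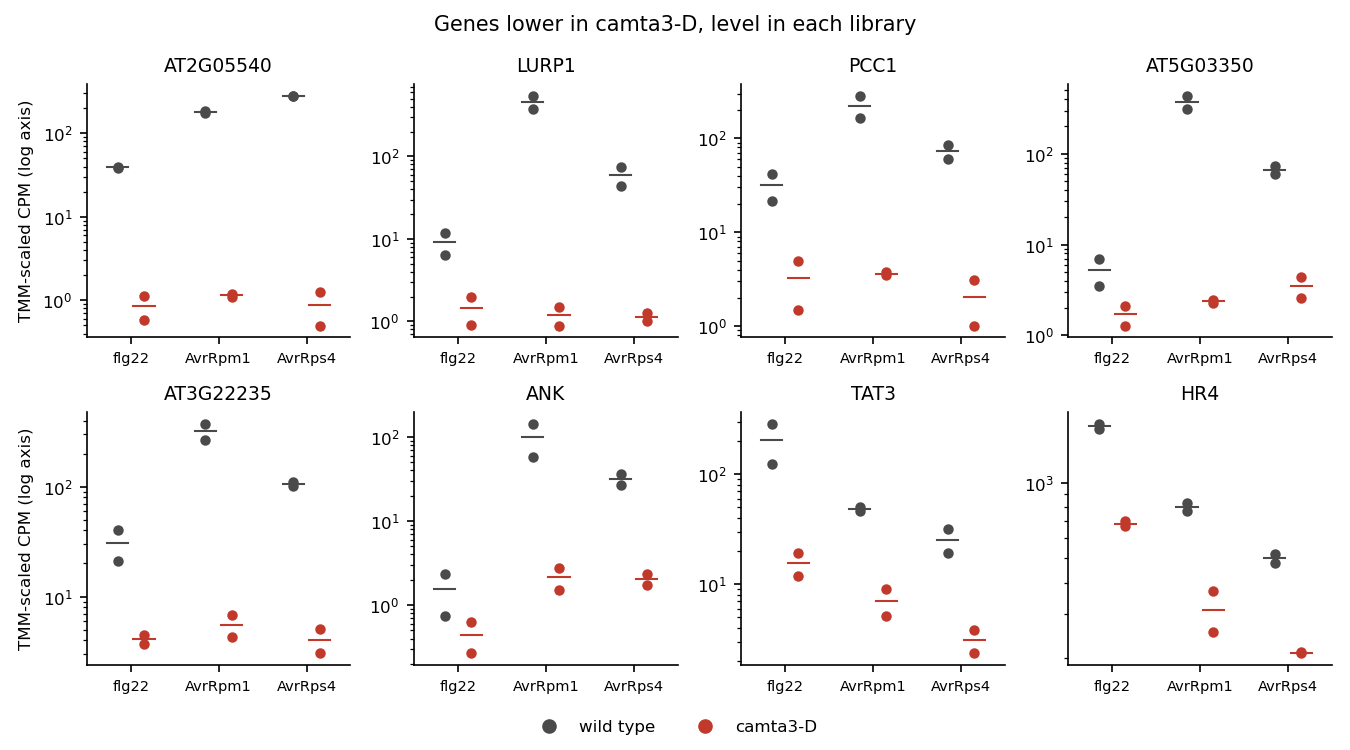
Level of 8 genes lower in camta3-D in each of the 12 libraries (TMM-scaled CPM, log axis), by treatment, with wild type in grey and camta3-D in red. Points are libraries and bars are means of 2. Wild-type LURP1 spans 6.31 to 539.9 CPM over the treatments while camta3-D stays between 0.887 and 1.97, and HR4 keeps a similar distance in each treatment.

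Further decreases of more than 8-fold were found in genes of several functions. AT5G03350, a legume lectin gene, stood at 3.5 to 434 CPM (median 67.1) in wild type and 1.28 to 4.43 CPM (median 2.36) in camta3-D (log2 fold change -4.7 ± 0.80 SE, adjusted p = 0.00426). ANK, annotated as an ankyrin gene, held 143 and 58.3 CPM in wild type and 1.53 and 2.73 in camta3-D after AvrRpm1, and its averaged effect was -4.46 (adjusted p = 0.00072). NUDT6, a nudix hydrolase gene, fell 15.1-fold (adjusted p = 0.000718), and AT1G13470, of unknown function, 18.6-fold (adjusted p = 0.000613). WRKY70, a transcription factor of the salicylic acid response, held 326 and 197 CPM in wild type and 7.03 and 8.46 in camta3-D after AvrRpm1. After AvrRps4 its values were 80.2 and 209.9 against 38.6 and 70.3, so that the lines lay closer together there. Its averaged effect was -3.67 (adjusted p = 0.00601), and without the flg22 libraries the call was lost (adjusted p = 0.0657). AIG1, a GTP-binding protein gene induced by avirulent bacteria, fell 8.82-fold (adjusted p = 0.00182), and AT3G48080, an alpha/beta-hydrolase gene, 9.14-fold (adjusted p = 0.000389). AT3G48080 lies beside its close relative EDS1, so reads may have been shared between them.

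Some decreases with small p were nearly equal in the 3 treatments. HR4, a homologue of the mildew resistance gene RPW8, stood at 1639 and 1713 CPM in wild type and 669 and 703 in camta3-D after flg22. After AvrRpm1 it held 771 and 826 against 253 and 369, and after AvrRps4 519.6 and 479 against 211 and 209. Although the level of HR4 differed among the treatments, the genotype effect was -1.29, -1.36 and -1.25 in the order flg22, AvrRpm1 and AvrRps4 (average log2 fold change -1.3 ± 0.09 SE, adjusted p = 2.75e-05). AT1G13750, a purple acid phosphatase gene, had effects of -1.97, -2.06 and -2.25 (average -2.1, adjusted p = 3.4e-05), and AT3G08870, a lectin receptor kinase gene, -1.69, -2.27 and -1.62 (average -1.87, adjusted p = 0.000105). AT2G25510, of unknown function, held 211 to 789 CPM (median 523) in wild type and 37.1 to 164 CPM (median 63.2) in camta3-D (-2.82, adjusted p = 7.9e-05). AT5G42530, also of unknown function, had similar levels, at 267 to 681 CPM (median 581) and 37.9 to 176 CPM (median 62.7) (-2.94, adjusted p = 0.000196). Among the 216 called genes over 2-fold and at a mean level of 2 log2 CPM or more, the 3 effects of a gene spanned a median of 1.34 log2 units, so that HR4 is one of the most even.

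**Figure D3:**
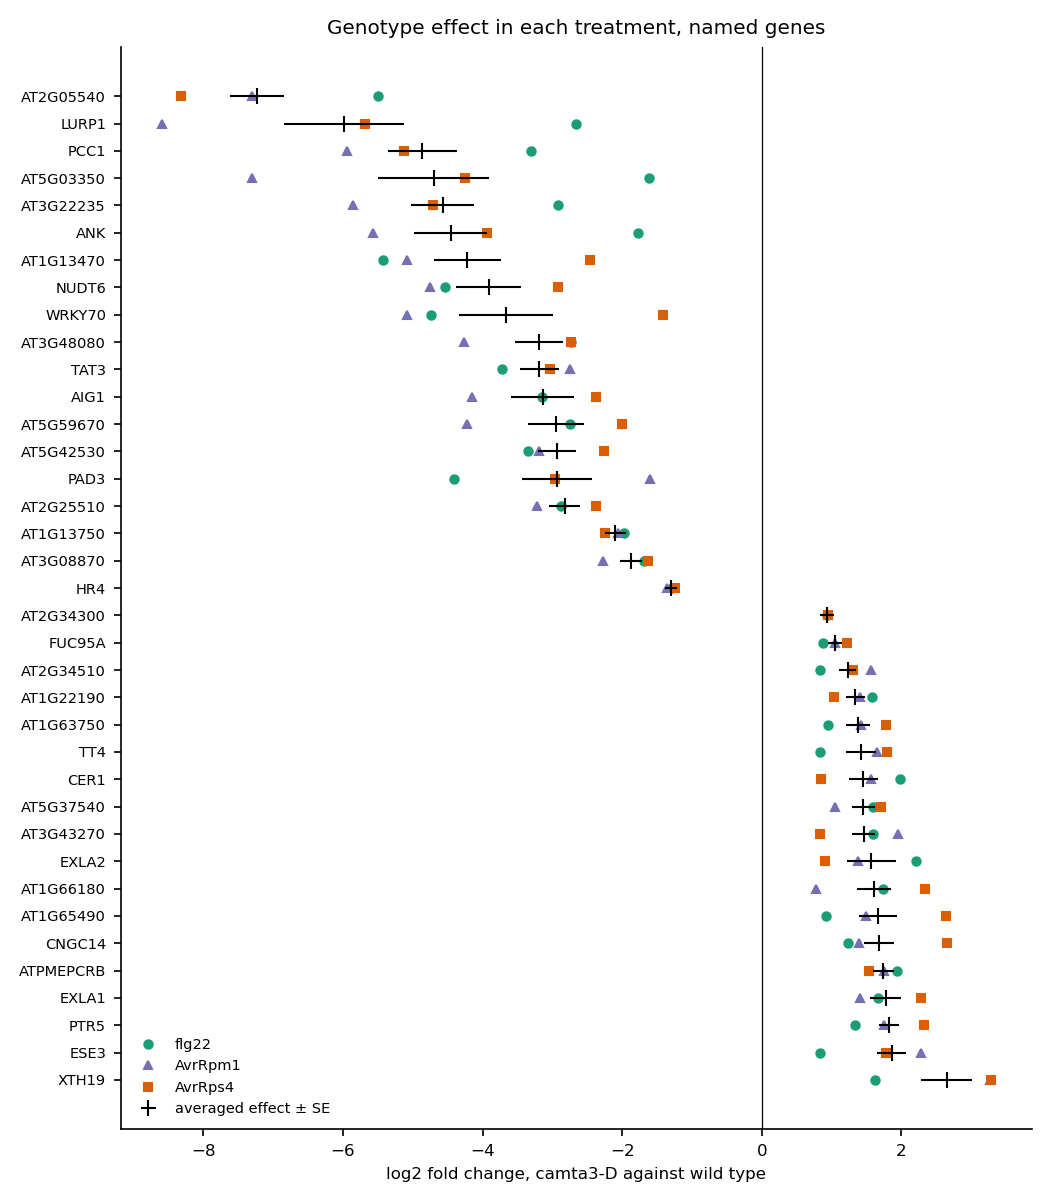
Genotype effect (log2 fold change, camta3-D against wild type) of 37 genes after flg22 (circles), AvrRpm1 (triangles) and AvrRps4 (squares), with the averaged effect and its standard error as a black cross. The genes are those with the largest called changes or the smallest p, and these values chose them. LURP1 spreads from -8.59 to -2.66 while HR4 spreads from -1.36 to -1.25.

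The largest increases were smaller, and several lay in genes of the cell wall and plant surface. XTH19, which encodes a xyloglucan-modifying enzyme of the cell wall, stood at 35.3 and 33.7 CPM in wild type and 83.2 and 129 in camta3-D after flg22, at 0.717 and 2.72 against 23.5 and 9.53 after AvrRpm1, and at 4.71 and 6.06 against 45.4 and 59.1 after AvrRps4. The lines did not overlap in any treatment, and the averaged increase was 6.27-fold (log2 fold change 2.65 ± 0.37 SE, adjusted p = 0.00158). EXLA1 and EXLA2, which encode expansin-like proteins, rose 3.42-fold (adjusted p = 0.000937) and 2.97-fold (adjusted p = 0.0138). For EXLA2 the call was lost without the AvrRpm1 libraries (adjusted p = 0.0547). Pectin enzymes were also among them. ATPMEPCRB, a pectin methylesterase gene, held 80.04 and 75.8 CPM in wild type and 269 and 328 in camta3-D after flg22, 51.5 and 36.9 against 103 and 196 after AvrRpm1, and 21.3 and 23.3 against 58.6 and 70.2 after AvrRps4 (log2 fold change 1.74 ± 0.16 SE, adjusted p = 0.000156). AT3G43270, of the same protein superfamily, rose 2.75-fold (adjusted p = 0.000604), and FUC95A, which encodes a fucosidase that trims xyloglucan, 2.07-fold (adjusted p = 0.000168).

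CER1, which encodes an enzyme of alkane formation in the cuticular wax, stood at 8.53 and 13.3 CPM in wild type and 31.4 and 54.9 in camta3-D after flg22, at 83.7 and 55.3 against 224 and 187 after AvrRpm1, and at 77.7 and 73.7 against 133 and 140.2 after AvrRps4 (log2 fold change 1.45 ± 0.21 SE, adjusted p = 0.00185). PTR5, a dipeptide transporter gene, held 4.29 and 4.96 CPM in wild type and 21 and 25.3 in camta3-D after AvrRps4, and had the smallest p of all increases (log2 fold change 1.82 ± 0.15 SE, adjusted p = 7.9e-05). TT4, which encodes chalcone synthase at the entry of flavonoid synthesis, rose 2.68-fold (adjusted p = 0.00247). ESE3, an ERF-type transcription factor gene, held 0.645 and 0.435 CPM in wild type and 0.691 and 1.24 in camta3-D after flg22, 5.74 and 5.98 against 33.5 and 23.1 after AvrRpm1, and 14.2 and 10.7 against 36.9 and 48.2 after AvrRps4, with an averaged effect of 1.86 (adjusted p = 0.00054). CNGC14, a cyclic nucleotide-gated channel gene, rose 3.2-fold (adjusted p = 0.00114). Of the remaining largest increases, AT5G37540 and AT1G66180 encode aspartyl proteases (2.74-fold and 3.05-fold), AT1G22190 an ERF-type factor (2.53-fold), and AT1G63750 an NLR receptor of the TIR class (2.6-fold). AT1G65490 (3.17-fold) has no described function. Of the increases named for a small p, AT2G34510 (2.35-fold) has no described function either. AT2G34300, a methyltransferase gene, had nearly the same effect in each treatment (0.93, 0.94 and 0.94), with an average of 0.94, adjusted p = 0.00034.

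**Figure D4:**
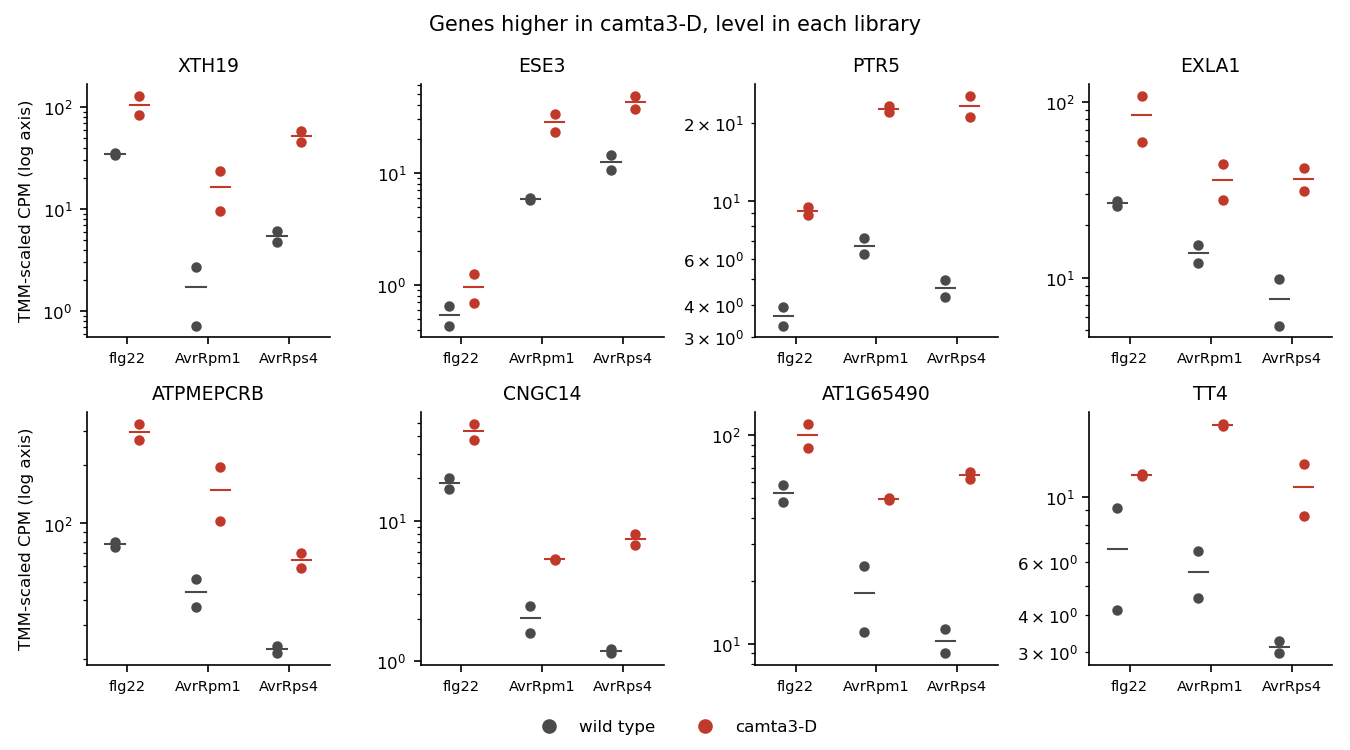
Level of 8 genes higher in camta3-D in each of the 12 libraries (TMM-scaled CPM, log axis), by treatment, with wild type in grey and camta3-D in red. Points are libraries and bars are means of 2. XTH19 after AvrRpm1 goes from 0.717 and 2.72 CPM in wild type to 23.5 and 9.53 in camta3-D.

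Promoter sequences of the called genes were searched for the CAMTA core and for the core bound by WRKY factors. Windows ran from 250 bases before to 50 after each gene start (RefSeq annotation, TAIR10.1), and both strands were read. CGCG was found in 18.4% of the windows of higher genes, 22.1% of those over 2-fold higher, 11.6% of those of lower genes and 14.3% over all genes tested. The longer form CGCGTT, which contains the CGCG core, was in 6.95% of higher, 15% of over 2-fold higher (17 of 113), 2.89% of lower and 3.95% of all tested genes. TTGAC, the core of the W-box of WRKY factors, went the other way, with 60.7% in lower genes, 64.1% in those over 2-fold lower, 45.2% in higher genes and 50.9% over all tested. The CCGCGT form, which also contains CGCG, was in 2.15% of lower and 3.96% of higher genes, beside 2.62% of all tested. TGACG, bound by TGA factors, was in 25.4% of lower, 24.2% of higher and 23.9% of all tested genes. The evening element AAAATATCT was in 3.49% of lower, 3.44% of higher and 3.08% of all tested genes, and in 7.96% of those over 2-fold higher (9 of 113). CACGTG was in 8.93% of lower, 9.64% of higher and 8.85% of all tested genes, and GAAATTT in 16.8%, 12.9% and 14.7%. The median GC content of the windows was 31.3% for lower, 33.0% for higher and 32.0% for all tested genes, and its part in these shares was not tested. A match describes letters in a window and is not a binding site.

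The windows that follow show CGCGTT in genes over 2-fold higher that encode wall proteins, calcium sensors or a TIR-type receptor. They are read 5′ to 3′ in the direction of the motif, which is in capitals, with its position counted from the gene start. For TCH2 and AT1G63750 only 1 site each is printed, and their windows held further matches. EXLA1 and EXLA3 lie next to each other on chromosome 3, and the 5 bases before the motif were the same in the EXLA1 window and in both EXLA3 windows. EXLA3 itself rose 2.53-fold (adjusted p = 0.0423), EXPA6, an expansin gene, 2.32-fold (adjusted p = 0.00136), and TCH2 and CML23, which encode calmodulin-like proteins, 2.14-fold and 2.07-fold (adjusted p = 0.00816 and 0.00455).
EXLA1, chr3:16896018-16896047, minus strand, position -136: tcttcccaattaCGCGTTttatacatatat
EXLA3, chr3:16892546-16892575, minus strand, position -144: cctttctaattaCGCGTTtgactcatagtc
EXLA3, chr3:16892610-16892639, minus strand, position -80: cttttctaattaCGCGTTtgactcatagag
EXPA6, chr2:12433971-12434000, plus strand, position -192: gctccattgaagCGCGTTgggacgaccact
TCH2, chr5:14999665-14999694, minus strand, position -63: taattaaaaaaaCGCGTTattacgtcaccc
CML23, chr1:24771417-24771446, minus strand, position -41: cgtctttaaaacCGCGTTaaaacgtcactt
AT1G63750, chr1:23650780-23650809, plus strand, position -48: aaagtgtcaaaaCGCGTTtgctgaaagtcc

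Of the 15 genes with the largest decreases, 7 held TTGAC and 1 held CGCGTT in the window, and of the 15 with the largest increases, 6 and 3. Over all genes tested, 50.9% held TTGAC and 3.95% CGCGTT, so TTGAC was not more frequent among the 15 largest decreases than over all genes. The W-box cores nearest to the start are shown for 3 of the decreased genes, with the core in capitals. For NUDT6 a second core lies further from the start, and AT2G05540, LURP1 and PCC1 held none in this window.
WRKY70, chr3:20910667-20910695, plus strand, position -60: cttatggtgagcTTGACgtaagctcaaat
NUDT6, chr2:1543250-1543278, plus strand, position -58: aaacatttcggtTTGACtttagcaaaatc
TAT3, chr2:10585244-10585272, minus strand, position -44: ttgcgacgacccTTGACtttaaatccttt

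Genes of salicylic acid synthesis and of its companion signal N-hydroxypipecolate were mostly lower. The counts of this list and of those that follow stand beside 7.79% lower and 6.98% higher over all genes tested. Of 18 tested, 14 were lower and 1 higher in camta3-D (median log2 fold change -1.71, beside 0.02 over all genes), and 7 separated in each treatment. Without the flg22 or the AvrRpm1 libraries 7 and 8 were lower. The master regulator SARD1 held 37.6 and 55.8 CPM in wild type and 6.64 and 4.82 in camta3-D after flg22, 81.6 and 39.9 against 4.69 and 5.02 after AvrRpm1, and 56.6 and 120.1 against 32.1 and 57.6 after AvrRps4 (log2 fold change -2.51 ± 0.45 SE, adjusted p = 0.00513). The lines were far apart in the first 2 treatments and overlapped after AvrRps4, and without the flg22 libraries the call was lost (adjusted p = 0.0722). Its partner CBP60G fell short of the threshold (-1.03, adjusted p = 0.133), with effects of -2.41, -0.74 and 0.01. EDS16, which encodes the isochorismate synthase that makes the salicylic acid precursor, held 79.7 and 141 CPM in wild type and 19.1 and 18.8 in camta3-D after flg22 (log2 fold change -1.84 ± 0.32 SE, adjusted p = 0.00469). EDS5, which encodes the transporter that exports this precursor from the plastid, separated in each treatment, with 129 and 143 against 29.98 and 23.3 CPM after flg22, 10.6 and 5.48 against 1.99 and 2.33 after AvrRpm1, and 17.2 and 23.2 against 5.84 and 11.7 after AvrRps4 (log2 fold change -1.83 ± 0.24 SE, adjusted p = 0.00134).

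The pipecolate branch was barely counted in camta3-D. ALD1, which starts N-hydroxypipecolate synthesis, had 20 and 63 counts in wild type after flg22, 16 and 8 after AvrRpm1 and 1 and 7 after AvrRps4. It had 0 counts in all 6 camta3-D libraries. Against a floor of 3 counts over the group it was at least 35.5-fold lower (adjusted p = 0.0108). Setting ALD1 at that bound could not move the median of the list, because the bound also lies below that median. FMO1, which completes the signal, had 8 to 50 counts per library in wild type and 0 to 2 in camta3-D (adjusted p = 0.00161). UGT76B1, a glucosyltransferase gene that inactivates both hormones, held 131 and 176 CPM in wild type and 0.355 and 1.7 in camta3-D after AvrRpm1. After AvrRps4 its values were 8.25 and 7.05 against 0.267 and 0.364, and the lines did not overlap after flg22 either, where counts were low (log2 fold change -6.29 ± 0.61 SE, adjusted p = 0.000241). PBS3 (-2.31, adjusted p = 0.0132), which conjugates isochorismate, and the lipase-like regulators PAD4 (-1.91, adjusted p = 0.0207) and EDS1 (-1.09, adjusted p = 0.0302) were lower on average, with overlap in at least 1 treatment.

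Of the salicylic acid perception and response genes, 9 of 17 were lower and 0 higher (median -0.80), and without the AvrRpm1 libraries 4 were lower. The receptor genes NPR1 (-0.47, adjusted p = 0.0172), NPR3 (-0.79, adjusted p = 0.0489) and NPR4 (-1.43, adjusted p = 0.00444) were among them, as were the repressor gene of NPR1 signalling NIMIN1 and the glutaredoxin gene GRX480 (-2.4, adjusted p = 0.00619). NIMIN1 had 46 and 192 counts in wild type and 14 and 6 in camta3-D after flg22, 683 and 212 against 1 and 1 after AvrRpm1, and 32 and 118 against 1 and 3 after AvrRps4 (-5.25, adjusted p = 0.00226). PR1, the classical marker of this hormone, was counted only after AvrRpm1, with 41 and 45 counts in wild type and 0 and 1 in camta3-D (adjusted p = 0.0102). All 8 libraries of the other treatments held 0 counts of PR1, so its averaged effect rests on 4 libraries. The TGA factor genes TGA1, TGA3, TGA4 and TGA6 did not pass the test, with estimates from -0.50 to -0.06.

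WRKY transcription factors, which bind W-boxes, were lower in 10 of 30 cases and higher in 1 (median -0.57), with 6 lower without the flg22 libraries. WRKY62 had 22 to 127 counts per library in wild type and 0 to 3 in camta3-D, with no overlap in any treatment (adjusted p = 2.75e-05). WRKY38 was mainly counted after AvrRpm1, with 142 and 183 counts in wild type and 1 and 1 in camta3-D (adjusted p = 4.02e-05), and WRKY51 had 7 to 81 counts in wild type and at most 1 in camta3-D (adjusted p = 0.00114). WRKY54 (-2.89, adjusted p = 0.00425), WRKY46 (-1.82, adjusted p = 0.0427) and WRKY53 (-0.50, adjusted p = 0.0414) were lower too. WRKY25 rose, from 32.6 and 32.9 CPM in wild type to 82.5 and 89.2 in camta3-D after AvrRps4 (log2 fold change 0.87 ± 0.13 SE, adjusted p = 0.00199). WRKY33 (-0.32, adjusted p = 0.499) and WRKY40 (-0.11, adjusted p = 0.854), which respond within minutes to elicitors, did not pass the test.

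**Figure D5:**
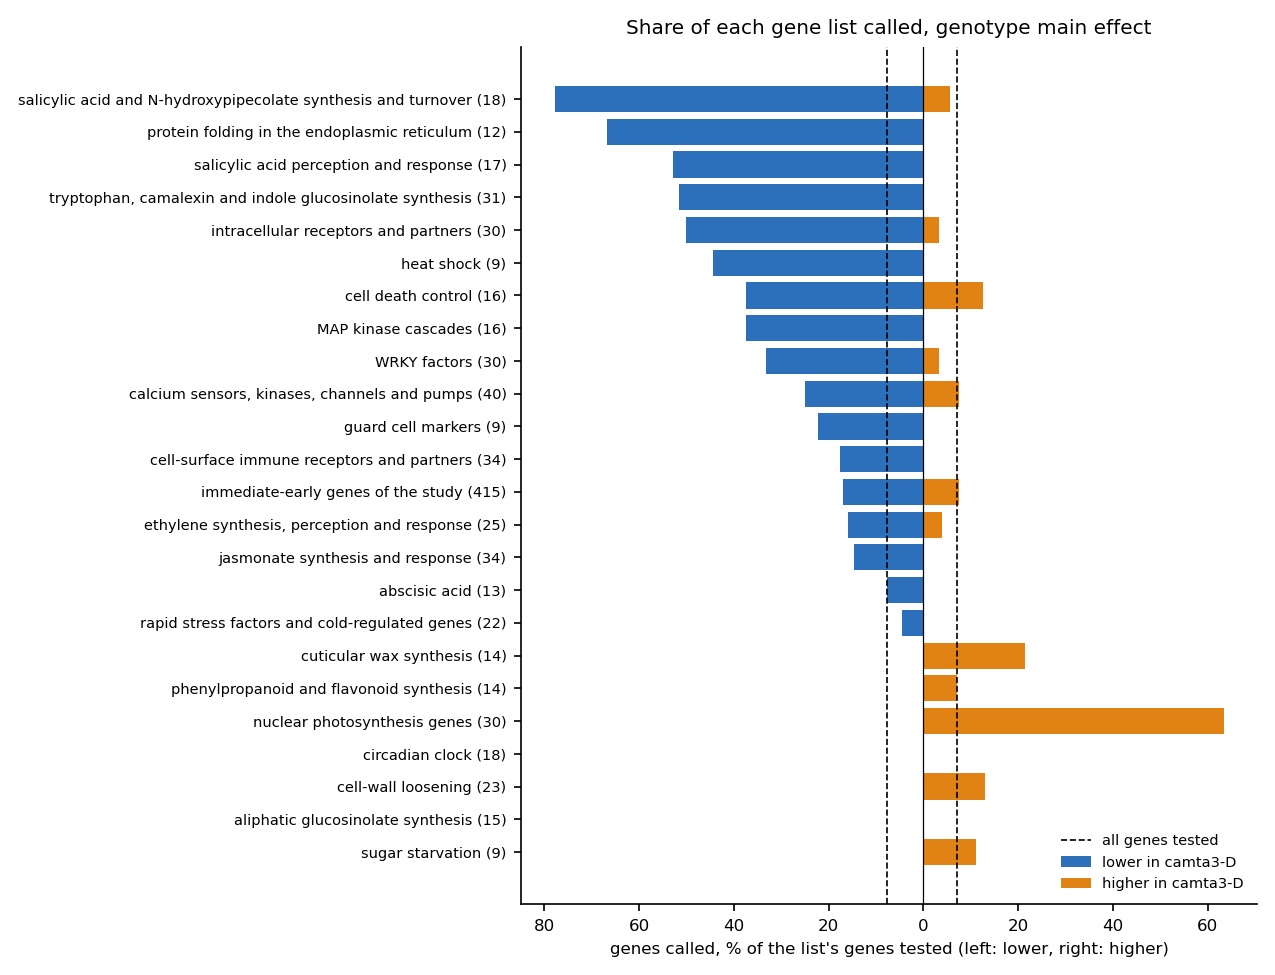
Share of each gene list called lower (left, blue) or higher (right, orange) in camta3-D, in % of the list's genes tested, whose number is in parentheses, for lists with at least 9 genes tested. Dashed lines mark 7.79% lower and 6.98% higher over all genes tested. Salicylic acid synthesis reached 77.8% lower and nuclear photosynthesis genes 63.3% higher, and 2 lists had no call.

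Immune receptors were described in 2 lists. Of 30 intracellular receptors and partners, 15 were lower and 1 higher (median -0.33), and without the flg22 or the AvrRpm1 libraries 7 and 8 were lower. AT1G17600, an NLR gene of the TIR class, stood at 58.4 and 74.4 CPM in wild type and 19.7 and 22.2 in camta3-D after flg22, at 12.8 and 8.42 against 1.99 and 2.45 after AvrRpm1, and at 6.999 and 8.76 against 3.48 and 4.25 after AvrRps4 (log2 fold change -1.64 ± 0.19 SE, adjusted p = 0.000646). Its neighbour AT1G17610 fell 2.57-fold (adjusted p = 0.000606). The helper receptor gene ADR1-L1 (-0.83, adjusted p = 0.0168), the co-chaperone genes SGT1A (-0.82, adjusted p = 0.0313) and SGT1B (-0.51, adjusted p = 0.000921), SNC1 (-0.53, adjusted p = 0.0475) and RIN4 (-0.54, adjusted p = 0.0106), a protein guarded by NLRs, were lower. RPM1 itself (0.10, adjusted p = 0.615), the receptor for AvrRpm1, and RPS4 (-0.17, adjusted p = 0.317) and RRS1 (-0.05, adjusted p = 0.66), the pair for AvrRps4, did not pass the test. RPM1 held 20.3 and 18 CPM in wild type and 13.7 and 19.9 in camta3-D after AvrRpm1.

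Of 34 cell-surface receptors and partners, 6 were lower and 0 higher (median -0.27), with 3 lower without the flg22 libraries and 11 lower in DESeq2. WAK1, a wall-associated kinase gene, stood at 12 and 43.3 CPM in wild type and 4.68 and 3.94 in camta3-D after flg22, 431 and 256 against 25.2 and 30.6 after AvrRpm1, and 144 and 304 against 69.1 and 88.4 after AvrRps4 (log2 fold change -2.6 ± 0.41 SE, adjusted p = 0.00323). The cysteine-rich receptor kinases CRK7 (-1.37, adjusted p = 0.00668), CRK13 (-1.13, adjusted p = 0.0327) and CRK5 (-0.92, adjusted p = 0.0116) were lower as well. The flagellin receptor gene FLS2 (AT5G46330) stood at 870.1 and 792 CPM in wild type and 972 and 1319 in camta3-D after flg22, and its averaged effect was 0.03 (adjusted p = 0.897). BAK1 (-0.32, adjusted p = 0.0527), BIK1 (0.01, adjusted p = 0.956) and RBOHD (0.14, adjusted p = 0.528), which act with FLS2, did not pass the test either.

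Of the MAP kinase cascade genes, 6 of 16 were lower and 0 higher (median -0.52), and 2 were lower without the flg22 libraries. MKK2 held 88.5 and 104 CPM in wild type and 62.3 and 64.3 in camta3-D after flg22, 78 and 62.7 against 41.5 and 42 after AvrRpm1, and 54.8 and 56.7 against 34.3 and 33.9 after AvrRps4 (log2 fold change -0.69 ± 0.07 SE, adjusted p = 0.000302). MPK4, which acts below MKK2, had effects of -0.60, -0.57 and -0.52 (average log2 fold change -0.56 ± 0.09 SE, adjusted p = 0.00326), and MEK1, also known as MKK1, an averaged effect of -0.78, adjusted p = 0.0241. All 3 genes separated in each treatment. MKK4, upstream of MPK3 and MPK6, had effects of -2.1, -1.08 and -0.25 (-1.15, adjusted p = 0.0195). MPK3 (-0.70, adjusted p = 0.0721) and MPK6 (-0.18, adjusted p = 0.147) did not pass.

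Calcium signalling genes went both ways, with 10 of 40 lower (25%) and 3 higher (7.5%), beside 7.79% and 6.98% over all genes tested (median -0.38). The lower count was 6 without camta3-D flg22 replicate 2 and 6 without the AvrRpm1 libraries. CML41, a calmodulin-like gene, had 26.3 and 52.9 CPM in wild type and 9.32 and 12.8 in camta3-D after AvrRps4 (log2 fold change -2.16 ± 0.28 SE, adjusted p = 0.0012), and AT2G41090, an EF-hand gene, 419 and 385 against 60.3 and 59.1 after AvrRpm1 (log2 fold change -1.85 ± 0.26 SE, adjusted p = 0.00157). The channel genes CNGC3 (-0.95, adjusted p = 0.041), CNGC10 (-0.85, adjusted p = 0.00616) and CNGC1 (-0.67, adjusted p = 0.0472) and the kinase gene CPK4 (-0.52, adjusted p = 0.0156) were lower. The 3 increases were TCH2, CML23 and the kinase gene CPK1 (0.48, adjusted p = 0.00824), and all 3 separated in each treatment. After AvrRpm1, TCH2 held 9.39 and 7.11 CPM in wild type and 21.7 and 34.3 in camta3-D.

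Glucosinolates and camalexin are sulphur-rich defence compounds derived from amino acids. Of 31 genes that make tryptophan, camalexin or indole glucosinolates, 16 were lower and 0 higher (median -0.69). The count was 5 without the flg22 and 7 without the AvrRps4 libraries, 10 without wild-type flg22 replicate 2 or wild-type AvrRps4 replicate 2, and 9 without camta3-D flg22 replicate 2 or camta3-D AvrRps4 replicate 1. PAD3, which makes the antifungal compound camalexin, held 42.8 and 86.1 CPM in wild type and 3.67 and 2.38 in camta3-D after flg22, 26.4 and 11.6 against 3.05 and 9.6 after AvrRpm1, and 11.6 and 12.2 against 2.1 and 0.93 after AvrRps4 (log2 fold change -2.93 ± 0.50 SE, adjusted p = 0.00429). CYP79B2, which takes tryptophan into this metabolism, had effects of -1.15, -1.1 and -1.81 (-1.35, adjusted p = 0.00344), and CYP83B1, the next step towards indole glucosinolates, -1.51, -1.33 and -1.83 (-1.56, adjusted p = 0.00363). The factor genes MYB51 (-1.42, adjusted p = 0.0189) and MYB122 (adjusted p = 0.00116) were lower, MYB122 with 8 to 20 counts per library in wild type and 0 to 3 in camta3-D. Of the tryptophan enzymes, TSA1 (-0.85, adjusted p = 0.0277), ASA1 (-0.65, adjusted p = 0.00353), ASB1 (-0.73, adjusted p = 0.032) and TSB1 (-0.40, adjusted p = 0.0114) were lower. Of 15 aliphatic glucosinolate genes 0 were called in edgeR and 0 in DESeq2 (median 0.39, 2 estimates below 0), and 2 had an unadjusted p under 0.05, the nearest being AT2G31790 (0.41, adjusted p = 0.066) and SOT18 (0.60, adjusted p = 0.121).

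Jasmonate genes were lower in 5 of 34 cases (14.7%, beside 7.79% over all genes tested, median -0.21). They were lower in 3 cases without camta3-D AvrRps4 replicate 1 or without the flg22 libraries, and in 8 without the AvrRpm1 libraries. TAT3, a tyrosine aminotransferase gene of the jasmonate response, held 123 and 288 CPM in wild type and 19.3 and 11.8 in camta3-D after flg22, 50.05 and 46.1 against 9.05 and 5.14 after AvrRpm1, and 19.1 and 31.5 against 3.82 and 2.35 after AvrRps4 (log2 fold change -3.18 ± 0.28 SE, adjusted p = 0.000156). AOS, which encodes allene oxide synthase of jasmonate formation, had effects of -0.43, -0.47 and -1.05 (-0.65, adjusted p = 0.00739). The ethylene list had 4 lower (16%) and 1 higher (4%, beside 6.98% over all genes tested) of 25 genes. The lower count was 1 without camta3-D flg22 replicate 1, 2 without wild-type flg22 replicate 1 or camta3-D AvrRpm1 replicate 1, 0 without the flg22 libraries and 2 without the AvrRpm1 libraries. ACS7, an ethylene synthesis gene, stood at 113 and 145 CPM in wild type and 22.2 and 22.6 in camta3-D after flg22 with at most 1.42 CPM in wild type after Pst (-2.06, adjusted p = 0.000999), and the receptor gene EIN4 had effects of -0.93, -0.13 and -0.44 (-0.50, adjusted p = 0.0188). Of abscisic acid genes 1 of 13 was lower (RD26, -0.41, adjusted p = 0.0325), a share of 7.69% beside 7.79% over all genes. Of rapid stress and cold genes 1 of 22 was lower (ZAT6, -0.82, adjusted p = 0.0156), a share of 4.55%.

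Heat shock and endoplasmic reticulum (ER) chaperones help proteins to fold. Of 9 heat shock genes tested, 4 were lower, and all 9 estimates lay below 0 (median -1.04). Without the flg22 libraries 2 were lower. HSP90.1, a cytosolic chaperone gene, held 30.7 and 36.7 CPM in wild type and 3.3 and 4.45 in camta3-D after flg22, 91 and 28 against 18 and 25.1 after AvrRpm1, and 32.5 and 29.1 against 10.9 and 11.7 after AvrRps4 (log2 fold change -1.94 ± 0.33 SE, adjusted p = 0.00429). HSP70 (-1.78, adjusted p = 0.00444) and the factor gene HSFA2 (-2.23, adjusted p = 0.00814) followed, and all 4 called genes separated in each treatment. Of 12 ER folding genes 8 were lower (median -0.76), but only CRT3, a calreticulin gene (-0.67, adjusted p = 0.00491), separated in each treatment. The chaperone gene BIP2 had effects of -1.79, 0.02 and -1.39 (-1.06, adjusted p = 0.0346), and its lines overlapped after AvrRpm1. The calls of this list fell to 1 without the flg22 libraries and to 1 without the AvrRps4 libraries, and stayed at 8 without AvrRpm1. They were 3 or 4 in the fits without 1 library, except those without wild-type flg22 replicate 1, wild-type AvrRpm1 replicate 1 or 2 and camta3-D AvrRpm1 replicate 2. BIP1 and BIP2 are near-identical and may share reads.

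Cell death control genes had 6 lower and 2 higher of 16, with 3 lower without the AvrRpm1 or without the AvrRps4 libraries. PLA2A, a patatin-like lipase gene, stood at 1056 and 1382 CPM in wild type and 431 and 379 in camta3-D after flg22, 40.5 and 29.7 against 6.5 and 13.2 after AvrRpm1, and 25.5 and 39.9 against 12.9 and 8.21 after AvrRps4 (log2 fold change -1.68 ± 0.19 SE, adjusted p = 0.000583). The cell death suppressor gene BI1 (-0.67, adjusted p = 0.00151), the metacaspase gene MC2 (-1.1, adjusted p = 0.00788) and ACD6 (-1.38, adjusted p = 0.00836) were lower. MYB30, a factor that promotes hypersensitive cell death, rose, with effects of 0.33, 1.1 and 0.32 (0.57, adjusted p = 0.0172). Of 5 immune U-box ubiquitin ligase genes PUB24 (-0.70, adjusted p = 0.0172) and PUB13 (-0.46, adjusted p = 0.0116) were lower. Of the 4 senescence genes tested SAG13 was called (-2.3, adjusted p = 0.0297) and NAP was not (-0.69, adjusted p = 0.134), and of 9 sugar starvation genes 1 was called, MCCA, which was higher (0.68, adjusted p = 0.0415).

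Of 30 nuclear photosynthesis genes tested, 19 were higher and 0 lower, 11 did not pass the test, 17 of these 19 separated in each treatment, and the median was 0.27 on the log2 scale. LHCA1, a light-harvesting gene of photosystem I, held 6876 and 6488 CPM in wild type and 8690 and 8208 in camta3-D after flg22, 4397 and 4349 against 5417 and 5094 after AvrRpm1, and 5134 and 6139 against 7401 and 7510.2 after AvrRps4 (log2 fold change 0.34 ± 0.07 SE, adjusted p = 0.00813). FBA1, an aldolase gene of the plastid, had effects of 0.34, 0.33 and 0.55 (log2 fold change 0.41 ± 0.07 SE, adjusted p = 0.00469). The summed level of the list was 11.6% to 15.9% of a library in wild type and 13.8% to 18.8% in camta3-D, so the ranges overlapped between lines over all treatments. With median-ratio size factors 18 were higher, and 1, 4 and 6 were without the flg22, AvrRpm1 and AvrRps4 libraries. Without camta3-D flg22 replicate 1 there were 11, and without camta3-D AvrRps4 replicate 1 there were 12. The circadian clock list had 0 calls of 18 in edgeR and 1 in DESeq2, and 3 genes had an unadjusted p under 0.05 (nearest RVE8, -0.95, adjusted p = 0.0835).

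Surface and wall genes outside the largest increases gave few calls. Over all genes tested 6.98% were higher. Of 14 wax synthesis genes 3 were higher (21.4%), CER1, KCS2 (1.2, adjusted p = 0.0431) and the factor gene MYB16 (0.36, adjusted p = 0.0425). Of 23 wall-loosening genes 3 were higher (13%), XTH19, XTH33 (1.57, adjusted p = 0.041) and XTH4 (0.64, adjusted p = 0.0189), and 0 were lower. TT4 was the only 1 of 14 phenylpropanoid and flavonoid genes called (7.14%), whereas 4CL2, its supplier of activated phenolic acids, had -0.54, adjusted p = 0.288. Of 9 guard cell genes 2 were lower, KAT1 (-0.65, adjusted p = 0.0279) and FMA (-0.49, adjusted p = 0.0279). Of 8 phloem genes 1 was higher, SULTR2;1 (0.56, adjusted p = 0.0246), while 5 of the 8 estimates lay below 0 (median -0.04). Of 6 epidermis genes tested 1 was higher, LP1 (0.37, adjusted p = 0.0236). Of 6 dividing cell genes tested 1 was higher, SYP111 (0.46, adjusted p = 0.0402). These 5 calls were each lost in at least 1 fit without a single library, as were those of EIN4, RD26, SAG13, MCCA and MYB16. GRP7, a clock-controlled RNA-binding protein gene, had 0.27, adjusted p = 0.135, and in the same way COR47 (0.46, adjusted p = 0.0651), NCED3 (0.58, adjusted p = 0.0678) and AT1G80440 (-0.30, adjusted p = 0.09) were the nearest in their lists without a call.

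The study's immediate-early genes, chosen in other experiments as induced by an MLA immune receptor fragment and by a protein synthesis inhibitor, were lower in 70 of 415 cases (16.9%, beside 7.79% of all genes) and higher in 31 (7.47%, beside 6.98%). Their median was -0.18 on average, and by treatment the median was -0.35 (flg22), -0.12 (AvrRpm1) and 0.05 (AvrRps4). Without the flg22 libraries 11 were lower, and without the AvrRps4 libraries 102. The count was 42 to 46 without any 1 of wild-type flg22 replicate 2, camta3-D flg22 replicates 1 and 2, camta3-D AvrRpm1 replicate 1 and camta3-D AvrRps4 replicate 1. The higher count was 19 without the AvrRpm1 and 15 without the AvrRps4 libraries. A further list held the genes taken for RT-qPCR. By RT-qPCR the study reported the immediate-early genes among them as significantly lower in camta3-D after flg22, AvrRpm1 and expression of the MLA fragment. It shows no RT-qPCR after AvrRps4, a treatment that the averages here include. Of the 8 genes on this list, 8 had averaged estimates below 0, and TAT3 and SARD1 were called. The others were AT5G41730 (-2.18, adjusted p = 0.0617), AT4G39670 (-1.03, adjusted p = 0.0836), CBP60G, DLAH (-1.25, adjusted p = 0.134), BON3 (-0.62, adjusted p = 0.337) and CML37 (-0.68, adjusted p = 0.462). Their medians ran from -2.67 after flg22 through -0.88 after AvrRpm1 to 0.01 after AvrRps4. For CML37 the effect was -2.24, 0.37 and 0.57 by treatment.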

How the data were processed

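RNA-seq counts per gene were deposited by the authors for 12 libraries. Per the submitters' processing notes, reads were checked with FastQC 0.11.2, aligned to TAIR10 with TopHat2 2.0.10 and counted with HTSeq. The strand setting is not given in the sources used here, so overlapping and antisense genes are uncertain. The table held 32678 genes and 5 summary lines, which were left out. Of all counted reads, those aligned to several places were 2.56% to 7.78%. Library totals of 22.8 to 26.3 M gene counts set the precision.

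Genes that passed edgeR's filterByExpr (minimum count 10; 19167 tested, 13511 not) were fitted in edgeR 4.0.16 (R 4.3.3) with TMM scaling, a treatment term and a genotype term, and the quasi-likelihood F-test with 8 residual degrees of freedom. Adjusted p is Benjamini-Hochberg over all genes tested, called under 0.05, and the SE is the log2 fold change divided by the square root of F. Effects by treatment and their interaction came from a fit of the 6 group means. CPM values are TMM-scaled, and mean log2 CPM used a prior count of 2. Gene names came from the RefSeq annotation of TAIR10.1, which matched 31912 IDs and left 766 unmatched.

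Genes named are the 15 largest called changes in each direction with mean log2 CPM of at least 2 and no overlap in any treatment, the 5 with the smallest p on each side, 2 per list by smallest p, and all CAMTA and RT-qPCR genes. Further list members, and genes shown for promoter sequence, were named after their values were seen. The members, lists and this rule were chosen with earlier results of these data known. Alternatives were RLE scaling, DESeq2 1.42.0, no filter, a replicate block, group means, no organelle genes, a stricter threshold, and leaving out each library or treatment.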

Additional observations from a re-analysis of the deposited data

Results flagged for a closer look

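The averaged effect stands for all 3 treatments only where the treatments do not differ, and for 3 of the genes named above the genotype effect differed among them in the 2-degree-of-freedom interaction test of edgeR. AT5G03350 had log2 fold changes of -1.62, -7.31 and -4.25 after flg22, AvrRpm1 and AvrRps4 (interaction adjusted p = 0.0181). For NAP they were -0.61, -1.75 and 0.32 (interaction adjusted p = 0.0261), so that the average of -0.69 lay near the flg22 estimate only. The NAP estimate above 0 after AvrRps4 did not pass edgeR's test in that treatment (adjusted p = 0.242). For LURP1 they were -2.66, -8.59 and -5.68 (interaction adjusted p = 0.0434). In AT5G03350 and LURP1 the difference lay in wild type, which ranged from 3.5 to 434 CPM and from 6.31 to 539.9 CPM, while camta3-D stayed below 5 CPM. No group of libraries was large enough for a search for single outlying samples.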

How the results depend on the processing

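The main counts were 1494 genes lower and 1338 higher. They were 1571 and 1164 with median-ratio size factors, 2040 and 1577 with DESeq2, 1397 and 1149 without a filter, 2014 and 1969 with group means, and 1505 and 1336 without organelle genes. At an adjusted p under 0.01 and over 2-fold they were 246 and 58. Leaving out 1 library gave 981 to 1510 lower and 750 to 1206 higher, with higher counts of 861 without wild-type AvrRpm1 replicate 1, 855 and 775 without wild-type flg22 replicates 1 and 2, 837 and 862 without camta3-D flg22 replicates 1 and 2, and 981 lower and 750 higher without camta3-D AvrRps4 replicate 1. Without the flg22, AvrRpm1 or AvrRps4 libraries the counts were 604, 1133 and 975 lower and 388, 764 and 590 higher.

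The labels do not tie a replicate number to an experiment, and same-numbered samples did not all deviate together (correlations of deviations -0.089, 0.055 and 0.098 after flg22, AvrRpm1 and AvrRps4), and with the replicate block 818 genes were lower and 608 higher. The block took the higher photosynthesis genes from 19 to 6, and the lower ER folding genes from 8 to 2, MAP kinase genes from 6 to 2, ethylene genes from 4 to 1 and immediate-early genes from 70 to 43. The interaction count of 47 became 42 with median-ratio size factors, 1319 with DESeq2, 272 without a filter and 18 with the replicate block, and ran from 0 to 204 when 1 library was left out. It was 0 without either camta3-D flg22 library, where 3692 and 3461 genes had an unadjusted p under 0.05.

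Signs were compared only for the 101 genes named by the rule above, and the estimates that changed sign were all from genes without a call. For CAMTA genes they were -0.00978 (AT1G67310) and -0.0429 (AT3G16940) without the flg22 libraries, 0.0554 (SR1) and 0.0663 (AT4G16150) without the AvrRpm1 libraries, and for EICBP.B 8.3e-05 with the replicate block, 0.0282 without flg22 and 0.0146 without AvrRpm1. Without single libraries AT3G16940 ran from -0.0131 to 0.0515, AT4G16150 from -0.0388 to 0.0334 and EICBP.B from -0.0398 to 0.0372. CML37 was 0.51 without the flg22 libraries. The calls of 67 of 77 named genes held without each library, and of 55 without each treatment. The cause of these changes was not tested beyond the smaller number of libraries.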

Other observations

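Genes were also grouped by the product name of the annotation, for each of the 177 names with at least 10 genes tested. The groups named here were chosen after their counts were seen. Over all genes tested, 7.79% were lower and 6.98% higher. Among receptors, 7 of 20 CC-type and 13 of 46 TIR-type NLR genes were lower, with 0 and 2 higher, and 6 of 19 S-locus lectin kinase genes were lower, among them AT1G11330 (-0.98, adjusted p = 0.0396), which had effects of 0.23, -1.85 and -1.33 after flg22, AvrRpm1 and AvrRps4 (interaction adjusted p = 0.0181). Of 10 genes of the SPFH/Band 7 membrane family 5 were lower, among them FLOT1 (-1.77, adjusted p = 0.00696), a flotillin gene, and HIR2 (-0.72, adjusted p = 0.0491), whose family is tied to NLR complexes at the membrane. Of 39 genes with cysteine- and histidine-rich C1 domains 12 were lower and 2 higher, and of 36 MATE efflux transporter genes 11 were lower, including EDS5 and ALF5 (-1.39, adjusted p = 0.000934), and 1 was higher. Of 10 DUF247 genes 5 were lower, with AT3G60470 at -3.01, adjusted p = 0.0152.

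In the other direction, beside 6.98% higher over all genes tested, plastid and wall groups gave mixed counts. Of 10 rhodanese-type genes 5 were higher, of 10 plastid-lipid-associated fibrillin genes 4, of 12 FKBP-type isomerase genes 4 and of 22 genes of glycosyl hydrolase family 17 5, with 0 lower in each. The rhodanese and fibrillin increases were small, from 0.22 (AT3G59780) to 0.58 (AT3G08920) and from 0.22 (AT5G19940) to 0.51 (AT2G46910) on the log2 scale. The pectin methylesterase inhibitor superfamily stands under 2 product names, with 4 higher and 1 lower (AT2G26440, -1.29, adjusted p = 0.00475) of 13 genes under the first and 1 higher and 0 lower of 16 under the second. Of 37 pectin lyase-like genes 2 were higher (5.41%) and 1 lower. Aspartyl protease genes split, with 6 lower and 5 higher of 47, from AT3G51330 (-2.06, adjusted p = 0.000623) to AT1G66180 (1.61, adjusted p = 0.00218).

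Some genes had genotype estimates of opposite sign among the treatments with an interaction past the threshold, and they were named after their values were seen. The interaction test tells that effects differed, not that they reversed. Within ASN1, BRU6, XTH25 and the 3 NLR genes below, the treatment estimates with an adjusted p under 0.05 in edgeR's test all had the same sign. Other genes past the interaction threshold had such estimates of opposite sign. AT2G16630 had 1.29 after AvrRpm1 (adjusted p = 0.0015 in that test) and -0.68 after AvrRps4 (0.0257). AT4G17240 had -1.14 after flg22 (0.00411) and 0.73 after AvrRps4 (0.0279). ASN1, an asparagine synthetase gene induced by carbon starvation, had 0.75, -0.60 and 2.76 after flg22, AvrRpm1 and AvrRps4 (interaction adjusted p = 0.0457), and the auxin-conjugating gene BRU6 had -1.23, 0.54 and 2.62 (0.0457). XTH25, a xyloglucan-modifying enzyme gene, had 1.22, -2.62 and -1.17 (0.0457), and 3 TIR-type NLR genes had their lowest estimate after flg22, AT5G51630 with -2.63, -0.33 and 0.07, AT1G56520 with -2.91, -0.36 and 0.16 and AT3G25510 with -3.21, -1.47 and 0.09 (interaction adjusted p = 0.0261, 0.0451 and 0.0457).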
